A study of Mus musculus with 16 samples.

Results

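The 10 genes described here mark the endothelium, the cell layer that lines blood vessels: Esam, Pecam1, Cdh5, Cldn5, Kdr, Flt1, Tek, Tie1, Emcn and Eng. They were chosen by name, with earlier results of these data known. Each was represented by the brightest of the probe sets whose annotation carries its symbol alone. All 10 were measured, among 18194 genes in all. The samples were gastrocnemius, a calf muscle, of male mice aged 2 months, hybridised to mouse expression arrays with 2 arrays in each of 6 groups. The study overexpressed Galgt2, whose current symbol is B4galnt2 and which encodes a glycosyltransferase that adds N-acetylgalactosamine to cell surface glycans. One array set held wild type (strain C57BL/6J), mdx (C57BL/10J, dystrophin-deficient), Galgt2 transgenic (C57BL/6J) and Galgt2 transgenic mdx muscle (C57BL/10J x C57BL/6J, dystrophin-deficient). The other set held dystrophin-deficient muscle of C57BL/10J mice given Galgt2 by AAV, a viral vector, and contralateral muscle mock-treated with phosphate-buffered saline (PBS). The labels name neither the promoter of the transgene nor the vector's serotype and dose. Strain is the same only within transgenic against wild type and AAV-Galgt2 against PBS. In mdx against wild type strain and dystrophin loss cannot be told apart, in transgenic mdx against mdx strain and the transgene cannot be, and the transgenic mdx comparisons with transgenic and wild-type muscle share that limit. The labels do not say that the 2 arrays of a group came from separate mice, nor which treated and contralateral muscles share a mouse, so the p-values below speak for the spread among these arrays, which may be technical.

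Endothelial cells hold together through adhesion proteins at their junctions, and they respond to growth factors through receptor tyrosine kinases. Vascular endothelial growth factor acts through Kdr and Flt1, and the angiopoietins act through Tek with its partner Tie1. In skeletal muscle a dense bed of capillaries surrounds the fibres, so whole-muscle RNA carries these transcripts beside those of the much larger fibres.

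Levels are log2 of the deposited intensity, and a difference between groups is on the same log2 scale, where 1 is a doubling. Array medians lay between 57.7 and 64.0 intensity units in the first set and between 25.4 and 25.7 in the second, so levels were compared within a set only. The targeted gene B4galnt2 lay at 13.17 to 13.34 (log2 level) in the 4 arrays carrying the transgene and at 3.86 to 4.94 in wild type and mdx replicate 1. In mdx replicate 2 it stood at 7.78, above the other arrays without the transgene. Dmd, the dystrophin gene, lay at 8.13 and 8.52 in mdx, 9.86 and 9.87 in transgenic mdx and 10.98 to 11.16 in the groups with dystrophin. In the second set B4galnt2 lay at 10.54 and 10.56 after AAV-Galgt2 and at 5.27 and 4.26 after PBS. Transgenic mdx replicate 2 stood apart in RNA quality: its ratio of 3′ to 5′ Gapdh signal was 1.23 on the log2 scale, against 0.18 to 0.48 on the 7 other arrays of its set. Its actin ratio was 2.05, against 0.84 to 1.46. Without transgenic mdx replicate 2 the median difference of the 10 genes from mdx was -1.04, and without mdx replicate 2 it was -1.30, against -0.98 with all arrays. The members that passed against mdx are given below with these arrays left out.

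The promoters of members that passed a test are shown first, for those with a RefSeq entry (GRCm38.p6). An entry was matched for 7 of the 10 genes. Each line gives the 250 bases before the annotated start, on the gene's strand, and capitals mark AGGAAG or CGGAAG on either strand, core forms recognised by ETS transcription factors, the family that drives many endothelial genes. They are Tie1 at chr4:118489850-118490099 on the minus strand, Cldn5 at chr16:18776597-18776846 on the plus strand and Tek at chr4:94739039-94739288 on the plus strand.
Tie1: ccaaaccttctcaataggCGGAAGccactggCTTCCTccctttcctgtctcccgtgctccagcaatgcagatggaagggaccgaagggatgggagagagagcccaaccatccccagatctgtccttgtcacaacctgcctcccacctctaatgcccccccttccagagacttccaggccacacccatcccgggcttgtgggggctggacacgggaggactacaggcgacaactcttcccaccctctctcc
Cldn5: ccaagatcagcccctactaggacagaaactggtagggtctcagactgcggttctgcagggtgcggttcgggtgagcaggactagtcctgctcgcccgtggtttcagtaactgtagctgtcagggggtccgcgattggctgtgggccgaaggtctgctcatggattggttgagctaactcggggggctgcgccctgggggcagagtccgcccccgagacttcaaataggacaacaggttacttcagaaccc
Tek: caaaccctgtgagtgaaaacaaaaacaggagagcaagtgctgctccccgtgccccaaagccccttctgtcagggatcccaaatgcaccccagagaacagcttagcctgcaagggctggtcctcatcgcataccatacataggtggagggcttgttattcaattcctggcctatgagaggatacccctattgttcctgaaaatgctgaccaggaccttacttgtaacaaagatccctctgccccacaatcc
The Tie1 window held 2 matches, and the Cldn5 and Tek windows held none of these letters. Over the 7 member promoters, AGGAAG or CGGAAG was found in 4 (Flt1, Tie1, Emcn and Eng), against 39.2% of all 32851 promoter windows of this length. AGGAAG alone was in 4 of 7, against 29.5% of all windows, and CGGAAG in 1 of 7, against 13.6%. The GATA form GATAAG and the SOX form ACAATG were in 0 of 7, against 6.55% and 10.7% of all windows. These are descriptions of letters in a window and not of binding.

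Averaged over the 10 genes, transgenic mdx muscle had the lowest endothelial levels of the first array set. Against mdx muscle, 3 of the 10 genes fell: the junction genes Esam and Cldn5 and the receptor gene Tie1 (limma, adjusted p under 0.05), where 6.08% of all genes passed in either direction, 2.11% as lower and 3.97% as higher. All 10 differences were below 0, where 51% of all genes were, and the median was -0.98, against -0.01 over all genes. In 9 of the 10 genes both transgenic mdx arrays lay below both mdx arrays, where 22.3% of all genes did. Since the genes were chosen with earlier results of these data known, these counts describe the list and do not test it. Neither transgenic nor mdx muscle gave a call against wild type, though mdx also differs in strain. After AAV-Galgt2 the differences pointed upward without a call. In bulk muscle, fewer endothelial cells and less endothelial RNA per cell cannot be told apart.

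**Figure D1:**
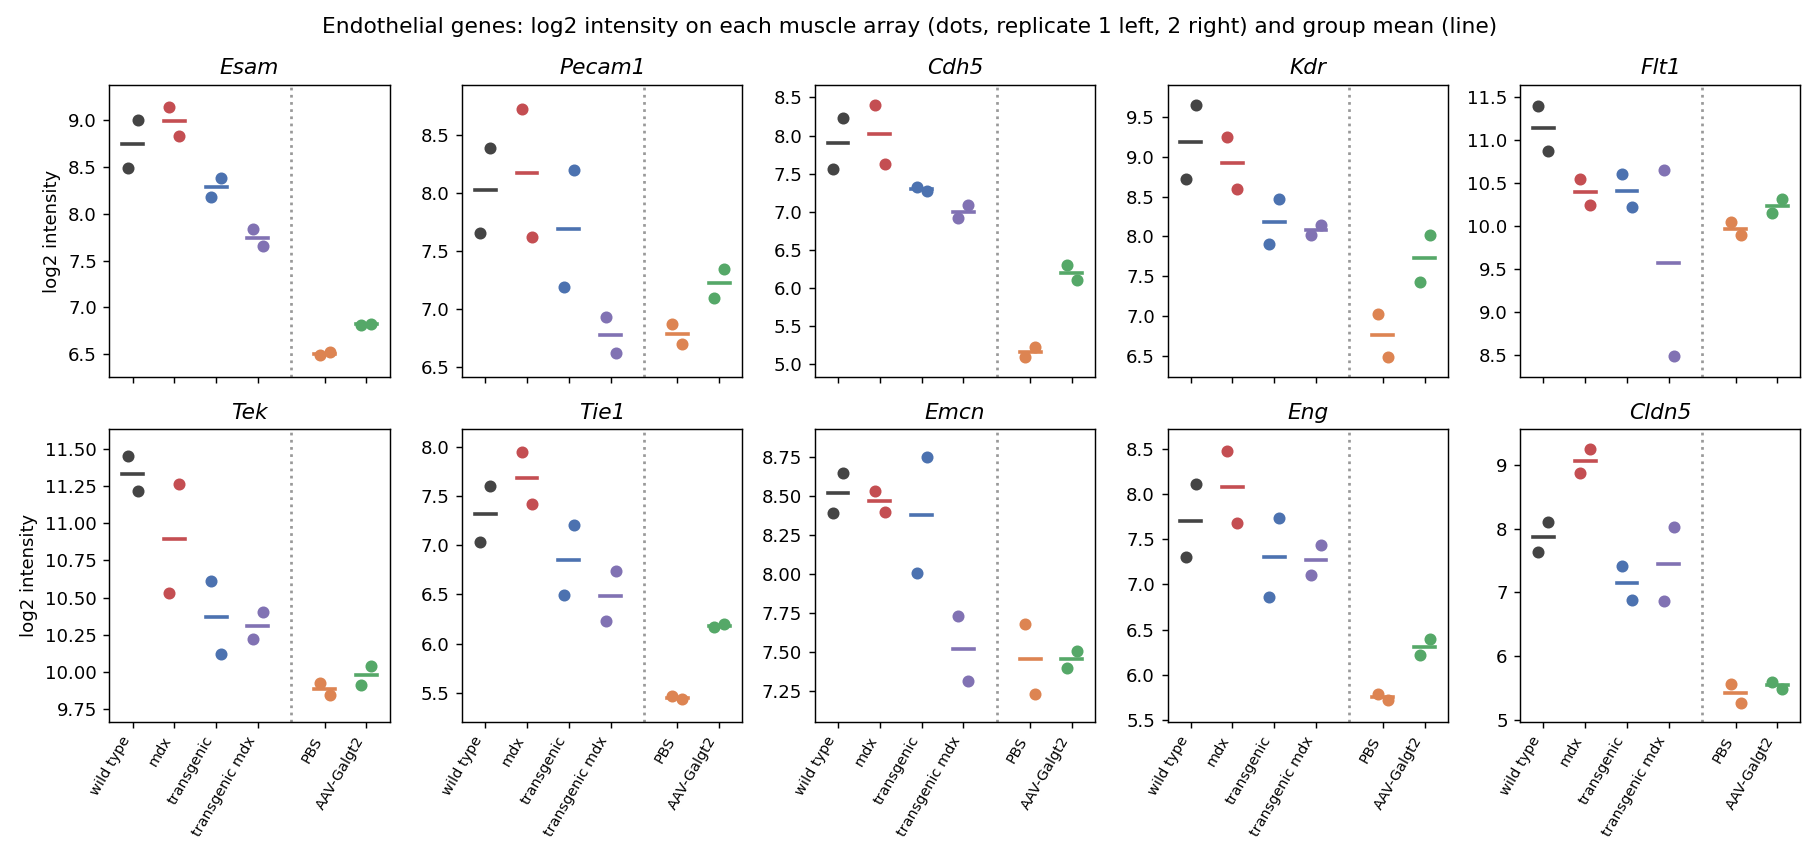
Log2 level of each endothelial gene on each of the 12 muscle arrays, with 1 point per array and a bar at the group mean. The 2 array sets differ in overall level and are compared only within themselves. In the first set the transgenic mdx points lie below the mdx points for every gene but Flt1.

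Among the adhesion and junction genes, Esam encodes an adhesion molecule of endothelial tight junctions. Its log2 level was 8.49 and 9.003 on the wild-type arrays, 9.15 and 8.83 for mdx, 8.18 and 8.39 for transgenic, and 7.84 and 7.66 for transgenic mdx. Both transgenic mdx arrays lay below all 6 others of the set, and no other gene of the 10 varied less between replicates (SD 0.19, n = 2 arrays in each of 6 groups). By array set the SD of Esam was 0.23 in the first and 0.018 in the second. Esam fell in transgenic mdx against mdx by 1.24 ± 0.22 (log2 difference ± SE, n = 2 and 2, adjusted p = 0.0119), a 2.37-fold difference. Without transgenic mdx replicate 2 the difference was -1.15 and missed the threshold (adjusted p = 0.0794), and without mdx replicate 2 it was -1.40 (adjusted p = 0.0287).

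Cldn5, a claudin that seals endothelial tight junctions, stood at 7.63 and 8.10 on the wild-type arrays, 8.87 and 9.26 for mdx, 7.41 and 6.88 for transgenic, and 6.87 and 8.02 for transgenic mdx (log2 level). Both mdx arrays were higher than the other 6, while transgenic mdx replicate 1 was the lowest of the set by a narrow margin and replicate 2 lay between the wild-type arrays. Its fall from mdx to transgenic mdx was the largest among the 10 genes, at -1.62 ± 0.36 (adjusted p = 0.0282), a 3.07-fold difference. This call was lost without mdx replicate 2 (-1.43, adjusted p = 0.119), without transgenic mdx replicate 1 (-1.04, adjusted p = 0.114) and, narrowly, without either AAV-Galgt2 array, which enters only the estimate of spread (adjusted p = 0.0513). Without transgenic mdx replicate 2 the difference was -2.19 (adjusted p = 0.0131).

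Pecam1, the adhesion molecule also called CD31, and Cdh5, the cadherin of endothelial adherens junctions, did not pass. Pecam1 had log2 levels of 7.66 and 8.39 on the wild-type arrays, 8.73 and 7.62 for mdx, 7.19 and 8.20 for transgenic, and 6.94 and 6.62 for transgenic mdx. The mdx arrays differed by 1.11 and enclosed both wild-type arrays, while both transgenic mdx arrays were the lowest of the set. The Pecam1 difference from mdx was -1.40 ± 0.41 (adjusted p = 0.0756). Cdh5 had log2 levels of 7.56 and 8.24 on the wild-type arrays, 8.40 and 7.63 for mdx, 7.32 and 7.27 for transgenic, and 6.91 and 7.08 for transgenic mdx. All 4 arrays with the transgene lay below the 4 without it, and the transgenic mdx arrays were the lowest. Its difference from mdx was -1.02 ± 0.29 (adjusted p = 0.0653). Without mdx replicate 2 both genes passed, Pecam1 at -1.95 (adjusted p = 0.0453) and Cdh5 at -1.40 (adjusted p = 0.0406).

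Among the receptors, Tie1 passed and its partner Tek did not. Tie1 encodes an orphan receptor that modulates angiopoietin signalling, and it stood at 7.03 and 7.60 on the wild-type arrays, 7.95 and 7.42 for mdx, 6.49 and 7.20 for transgenic, and 6.23 and 6.74 for transgenic mdx (log2 level). Its transgenic mdx arrays were below both mdx and both wild-type arrays and overlapped the transgenic ones. The difference from mdx was -1.20 ± 0.31 (adjusted p = 0.0474), close to the threshold. The call was lost without any single array of the wild-type, mdx, transgenic mdx, AAV-Galgt2 or PBS groups (adjusted p from 0.0551 to 0.198), without transgenic mdx replicate 2 at -1.46 and an adjusted p of 0.0908. It also missed with the replicate number as a block (adjusted p = 0.0750). Tek, which encodes the angiopoietin receptor Tie2, had log2 levels of 11.45 and 11.22 on the wild-type arrays, 10.53 and 11.26 for mdx, 10.61 and 10.12 for transgenic, and 10.22 and 10.40 for transgenic mdx. Here wild type was high and the arrays with the transgene low, with 1 mdx array at each end. The Tek difference of transgenic mdx from mdx was -0.58 ± 0.27 (adjusted p = 0.243), and -0.22 without mdx replicate 2.

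Kdr encodes the main signalling receptor for vascular endothelial growth factor. It had log2 levels of 8.72 and 9.65 on the wild-type arrays, 9.25 and 8.60 for mdx, 7.90 and 8.47 for transgenic, and 8.02 and 8.15 for transgenic mdx. The 4 arrays with the transgene lay below the 4 without it. The Kdr difference from mdx was -0.84 ± 0.37 (adjusted p = 0.224). Flt1, the decoy-like receptor of the same ligand, had log2 levels of 11.39 and 10.88 on the wild-type arrays, 10.54 and 10.24 for mdx, 10.60 and 10.22 for transgenic, and 10.65 and 8.49 for transgenic mdx. The last of these, transgenic mdx replicate 2, decided its difference, since the gap of 2.17 between the 2 replicates was the widest among the 10 endothelial genes. The Flt1 difference from mdx was -0.82 ± 0.53 (adjusted p = 0.437), with a value of 0.26 without that array and of -1.90 (adjusted p = 0.0139) without the other replicate.

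Emcn and Eng completed the set. Emcn encodes endomucin, a sialoglycoprotein of capillary and venous endothelium. Its log2 level was 8.39 and 8.65 on the wild-type arrays, 8.54 and 8.40 for mdx, 8.01 and 8.75 for transgenic, and 7.73 and 7.31 for transgenic mdx. Only the transgenic mdx arrays lay apart from the others, below all 6, with a difference from mdx of -0.95 ± 0.28 (adjusted p = 0.0736). Eng encodes endoglin, a co-receptor for ligands of the transforming growth factor beta family. Its log2 level was 7.30 and 8.11 on the wild-type arrays, 8.48 and 7.68 for mdx, 6.86 and 7.74 for transgenic, and 7.10 and 7.44 for transgenic mdx. The replicates of Eng were spread so widely that the transgenic mdx arrays overlapped those of wild type and transgenic muscle, and the difference from mdx was -0.81 ± 0.37 (adjusted p = 0.239).

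**Figure D2:**
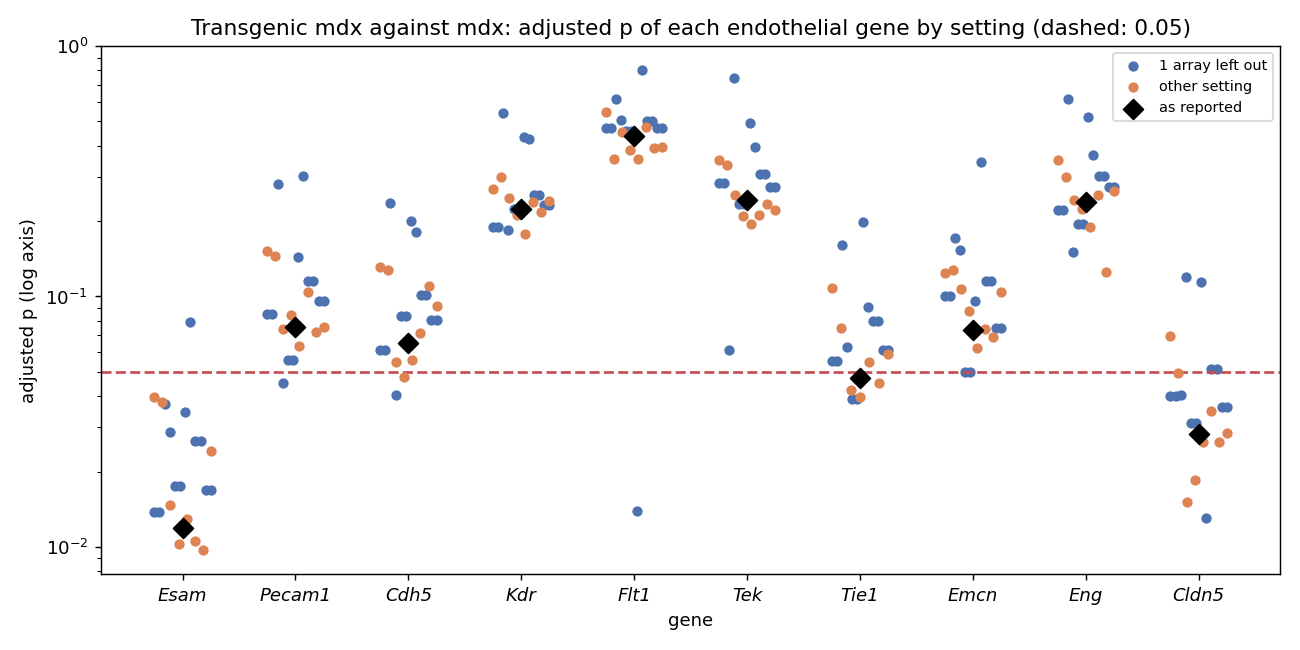
Adjusted p (log axis) of each endothelial gene for transgenic mdx against mdx, with a diamond for the value reported, 1 blue point for each array left out and 1 orange point for each other setting. The dashed line marks 0.05. Esam lies below the line in all settings but 1, Tie1 lies about the line and Kdr, Tek and Eng lie above it throughout.

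Other probe sets of the members, looked at after these values were known, gave no call in this comparison. Of 15 member probe sets, 7 genes had 1 each, Cdh5 and Eng 2 each and Flt1 4. The dim Cdh5 probe set differed by -0.47 ± 0.27, the other Eng probe set by -0.31 ± 0.24 and the other Flt1 probe sets by -0.47 ± 0.38, -0.42 ± 0.66 and -0.66 ± 0.34 (log2 differences). All 5 were negative and smaller in size than the difference of the brighter probe set of the same gene.

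Against wild-type muscle, transgenic mdx muscle again had lower endothelial levels, and 2 genes fell. They were Esam, by 1.00 ± 0.22 (adjusted p = 0.0234), and Tek, by 1.02 ± 0.27 (adjusted p = 0.0448), where 7.28% of all genes passed in either direction and 2.36% passed as lower. All 10 differences were below 0, where 49% of all genes were, and the median was -1.001, against 0.01. The other Eng probe set lay at 0.08 ± 0.24, against -0.43 ± 0.37 for the one used, and the other Cdh5 and Flt1 probe sets lay below 0. In 8 genes, all but Eng and Cldn5, the arrays did not overlap and transgenic mdx was lower, where 24.2% of all genes did so. The Flt1 difference was -1.56 ± 0.53 (adjusted p = 0.110), that of Emcn -1.002 ± 0.28 (adjusted p = 0.0572) and that of Cdh5 -0.90 ± 0.29 (adjusted p = 0.0928). Both calls were lost without transgenic mdx replicate 2 (Esam adjusted p = 0.144, Tek 0.141) and without wild-type replicate 2 (Esam 0.192, Tek 0.139). Without transgenic mdx replicate 1, both missed and Flt1 passed, at -2.65 (adjusted p = 0.00233). With the replicate block, 0 members passed (Esam adjusted p = 0.0596, Tek 0.0991), and after each array was shifted to a common median 7 passed.

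In wild-type muscle carrying the transgene, all 10 endothelial genes were lower in mean than in wild type, but none passed the limma test. At adjusted p under 0.05 the count was 0 of 10, where 3.15% of all genes passed, and at unadjusted p under 0.05 it was 2 of 10 as lower, Kdr and Tek, where 6.27% of all genes were. All 10 lay below 0, where 55.4% of all genes did, with a median of -0.53 against -0.05. In 6 genes (Esam, Cdh5, Kdr, Flt1, Tek and Cldn5) both transgenic arrays lay below both wild-type arrays, where 27.1% of all genes did so. Kdr differed by -0.997 ± 0.37 (adjusted p = 0.232) and Tek by -0.97 ± 0.27 (adjusted p = 0.0944). The 95% intervals of these differences ran from -1.82 to -0.18 for Kdr and from -1.56 to -0.38 for Tek. Tek passed at -0.97 when either mdx array, which enters only the estimate of spread, was left out (adjusted p = 0.0409).

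In mdx against wild-type muscle the endothelial genes lay on both sides of 0. None of the 10 passed the limma test, where 5.44% of all genes did and 3.75% as higher, 4 were below 0, where 49.2% of all genes were, and the median was 0.13 against 0.01. After each array was shifted to a common median, 7 lay below 0 and the median was -0.15, against -0.28 over all genes. At unadjusted p under 0.05 the count was 1, Cldn5, as higher, where 11.7% of all genes were. Cldn5 differed by 1.20 ± 0.36 (adjusted p = 0.0815), and both mdx arrays lay above both wild-type arrays, which held for 1 member and for 23.7% of all genes. Flt1 differed by -0.74 ± 0.53 (adjusted p = 0.510), and its mdx arrays lay below those of wild type, which also held for 1 member and for 21.6% of all genes. The other 8 genes overlapped between the groups, with differences from -0.44 ± 0.27 for Tek to 0.38 ± 0.37 for Eng. Esam, at 0.24 ± 0.22, had a 95% interval from -0.25 to 0.74. Cldn5 passed when either transgenic mdx array was left out of the estimate of spread (adjusted p = 0.0358).

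The difference between transgenic mdx and transgenic muscle sets dystrophin loss, together with a difference in strain, where the transgene is present. At adjusted p under 0.05 the limma test gave 0 of 10 genes, where 0.055% of all genes passed, and at unadjusted p under 0.05 it gave 2, Esam and Emcn, as lower, where 1.14% of all genes were. In 9 genes the difference was below 0, where 39.1% of all genes were, with a median of -0.33 against 0.07. The other Eng probe set lay at 0.33 ± 0.24, against -0.03 ± 0.37 for the one used, and the other Cdh5 and Flt1 probe sets lay below 0. In 4 genes (Esam, Pecam1, Cdh5 and Emcn) transgenic mdx was lower without overlap, where 9.48% of all genes did so. Emcn differed by -0.86 ± 0.28 and Esam by -0.54 ± 0.22 (adjusted p = 1 for each). The interaction is the difference of transgenic mdx from mdx minus that of transgenic from wild type. It passed for 0 of 10 genes, where 0.044% of all genes did. At unadjusted p under 0.05 it gave 1 gene as lower, where 5.89% of all genes were: Esam, at -0.78 ± 0.31 (adjusted p = 0.350). The median interaction was -0.57, against 0.05 over all genes. A larger lowering with the transgene in mdx, where strain also differs, than in wild-type muscle did not pass the test for any of the 10 genes.

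Between AAV-Galgt2 and PBS muscle no endothelial gene passed the test. At adjusted p under 0.05 the limma test gave 0 of 10 genes, where 0% of all genes passed, and at unadjusted p under 0.05 it gave 3 as higher, Cdh5, Kdr and Tie1, where 5.91% of all genes were. In 9 genes, all but Emcn, the difference was above 0, where 54.3% of all genes were, and the median was 0.38 against 0.03. After each array was shifted to a common median, 3 genes lay below 0 and the median was 0.20, against -0.15 over all genes. In 7 genes both treated arrays lay above both contralateral arrays, where 25.3% of all genes did so.

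Cdh5 had log2 levels of 6.31 and 6.10 after AAV-Galgt2 and 5.09 and 5.22 after PBS. These levels did not overlap, with a difference of 1.04 ± 0.29 (adjusted p = 0.395). The dim Cdh5 probe set differed by -0.16 ± 0.27, and over the other settings the Cdh5 difference was as low as 0.44. The other Eng probe set differed by 0.83 ± 0.24 and the other Flt1 probe sets by 0.77 ± 0.38, 0.19 ± 0.66 and 0.66 ± 0.34. Kdr had 7.42 and 8.02 after AAV-Galgt2 and 7.03 and 6.49 after PBS, a difference of 0.97 ± 0.37 (adjusted p = 0.527). Its treated arrays were also the higher ones, although each pair of replicates was spread by over 0.5. Tie1 had 6.16 and 6.20 after AAV-Galgt2 and 5.47 and 5.43 after PBS, a difference of 0.73 ± 0.31 (adjusted p = 0.566), with tight and separate pairs. Esam, with levels of 6.81 and 6.82 against 6.48 and 6.52, differed by 0.32 ± 0.22 (adjusted p = 0.769). Pecam1 was higher without overlap as well, at 7.10 and 7.35 against 6.87 and 6.70, and so was Eng, at 6.21 and 6.40 against 5.79 and 5.72. The Flt1 levels of 10.15 and 10.31 against 10.05 and 9.89 were also separate, by a narrow gap. Tek (9.91 and 10.04 against 9.93 and 9.85), Emcn (7.40 and 7.50 against 7.68 and 7.23) and Cldn5 (5.61 and 5.48 against 5.56 and 5.28) overlapped. The RNA quality ratios of these 4 arrays lay from 0.28 to 0.36 for Gapdh and from 0.87 to 1.27 for actin (log2).

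Array by array, the mean of the 10 genes differed between groups of the first set and also between replicates. With each gene centred on its mean over the set, the mean of the 10 was 0.15 and 0.57 on the wild-type arrays, 0.63 and 0.28 for mdx, -0.36 and -0.09 for transgenic, and -0.56 and -0.62 for transgenic mdx. The 2 transgenic mdx arrays were the lowest and the transgenic ones next, with wild type and mdx overlapping. The 3 arrays with the lowest means also had the 3 highest actin ratios of the set, 1.33 and 2.05 in transgenic mdx and 1.46 in transgenic replicate 1, while transgenic replicate 2 combined a ratio of 0.84 with a mean of -0.09, and the part of RNA quality in the means was not tested. In wild type 8 of the 10 genes were higher in replicate 2 than in replicate 1, in mdx 8 of 10 were lower, and in transgenic and in transgenic mdx muscle 6 were higher and 4 lower. In the second set the same mean was 0.17 and 0.28 after AAV-Galgt2 and -0.15 and -0.31 after PBS. Summed intensity of the 10 genes ran from 7363 to 7484 in wild type, 6233 to 6347 in mdx, 4351 to 4590 in transgenic and 3131 to 4077 in transgenic mdx muscle, a sum to which the bright Flt1 and Tek contribute most.

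**Figure D3:**
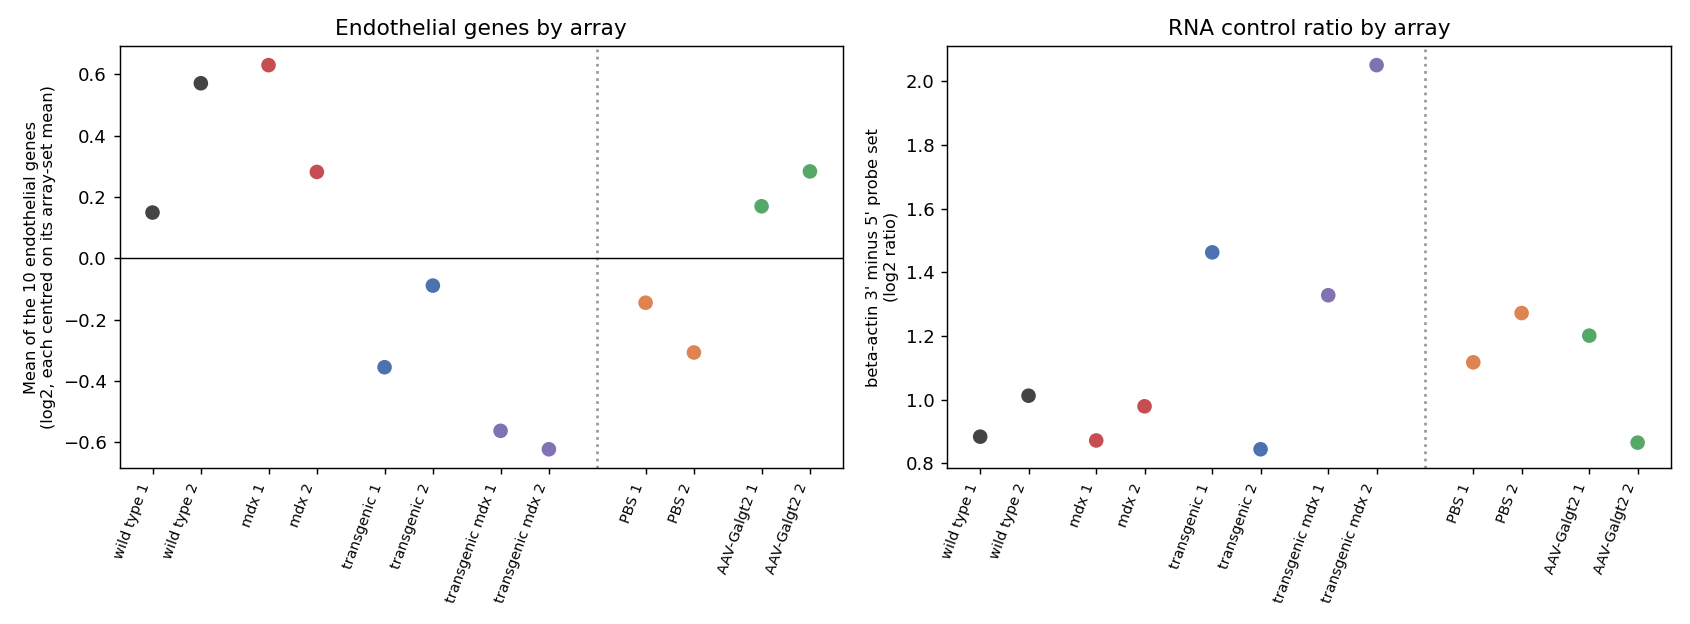
Left, mean of the 10 endothelial genes on each muscle array, each gene centred on its mean over the array set (log2), and right, the log2 ratio of 3′ to 5′ actin signal on the same arrays. Both transgenic mdx arrays lie lowest in the first set, at -0.56 and -0.62, and both AAV-Galgt2 arrays lie above both PBS arrays in the second.

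Over the 8 arrays of the first set, which share 4 groups, 44 of the 45 pairs of members varied in the same direction, with a median Pearson r of 0.63. Taken about the group means the median was 0.18. There Tek ran against every other member but Cldn5 (r = 0.49), from r = -0.97 with Pecam1 to -0.14 with Flt1. Esam followed the mean of the other 9 genes most closely (r = 0.98) and Flt1 least (r = 0.36). Among 9088 brighter genes outside the list, the 5 whose levels followed the members' mean most closely over these 8 arrays were Plekhb2 (r = 0.99), Ablim3 (0.99), Tpi1 (0.98), Pmpcb (0.98) and Smoc2 (0.97). They are named for likeness of pattern alone.

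Other endothelial genes gave a mixed picture in transgenic mdx against mdx muscle. Of 32 further surface and junction genes, 6 fell and 1 rose, with a median of -0.52, where 2.11% and 3.97% of all genes did so. Icam2, an endothelial adhesion molecule, fell by 1.30 ± 0.22 (adjusted p = 0.0105). Aplnr, the receptor for apelin, fell by 1.70 ± 0.41 (adjusted p = 0.0391), and Apln, its ligand, fell by 1.15 ± 0.29 (adjusted p = 0.0445). Cd36, a fatty acid transporter of capillary endothelium that muscle fibres and macrophages also express, rose by 1.32 ± 0.28 (adjusted p = 0.0229), but by the median of its probe sets differed by 0.48 (adjusted p = 0.434). Among 20 endothelial transcription factors 2 fell, Hhex by 1.67 ± 0.29 (adjusted p = 0.0110) and the ETS factor Elk3 by 1.11 ± 0.24 (adjusted p = 0.0251), with a median of -0.50. Of 16 vascular ligands and co-receptors only Tgfb1, which macrophages also produce, passed, with a fall of 0.95 ± 0.23 (adjusted p = 0.0406) and a list median of -0.54. None of 10 Notch genes and none of 5 endothelial activation genes passed the limma test, where unadjusted p was under 0.05 for 2 and 1 of them, as lower, against 9.39% of all genes, and the medians were -0.17 and -0.66. Each of the 7 genes named as passing here missed the threshold with at least 1 array left out, where the highest adjusted p was 0.0506 for Icam2, 0.115 for Aplnr, 0.157 for Apln, 0.0930 for Cd36, 0.0559 for Hhex, 0.104 for Elk3 and 0.137 for Tgfb1.

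The other comparisons held fewer calls in these lists. In mdx against wild type 1 surface gene fell, where 308 of all 18194 genes did. There 1 surface gene, 1 ligand, 2 transcription factors, 0 Notch genes and 1 activation gene rose, where 3.75% of all genes did. Ptprb, an endothelial phosphatase that acts on Tek, fell by 1.08 ± 0.21 (adjusted p = 0.0164), but by the median of its probe sets differed by -0.45 (adjusted p = 0.279), while Aplnr rose by 1.64 ± 0.41 (adjusted p = 0.0469) and Hhex by 1.15 ± 0.29 (adjusted p = 0.0469). Tgfb1 rose by 2.29 ± 0.23 (adjusted p = 0.00233), the leukocyte adhesion molecule Icam1 by 1.43 ± 0.37 (adjusted p = 0.0490) and the transcription cofactor Lmo2 by 0.91 ± 0.22 (adjusted p = 0.0379). In transgenic mdx against wild type 2 surface genes, 1 ligand and 2 transcription factors fell, where 2.36% of all genes did. There 2 ligands rose, where 894 of all 18194 genes did. Ptprb fell by 0.95 ± 0.21 (adjusted p = 0.0212), S1pr1, a sphingosine phosphate receptor of endothelium, by 1.35 ± 0.34 (adjusted p = 0.0397) and the flow-responsive factor Klf2 by 1.94 ± 0.44 (adjusted p = 0.0255). Efnb2, an ephrin of arterial endothelium, fell by 1.51 ± 0.34 (adjusted p = 0.0256) and the related factor Klf4 fell by 1.49 ± 0.39 (adjusted p = 0.0442), while Tgfb1 rose by 1.34 ± 0.23 (adjusted p = 0.00747) and Vegfd, a vascular growth factor, by 1.18 ± 0.31 (adjusted p = 0.0440). With the median of probe sets the Tgfb1 difference was 0.50 (adjusted p = 0.163). Tgfb1 in mdx against wild type passed with each array left out (highest adjusted p = 0.0273), while each other call of these 2 comparisons was lost with at least 1 array left out, at highest adjusted p values from 0.0772 for Tgfb1 in transgenic mdx to 0.294 for Klf4. In transgenic against wild type 0 of the genes of these 5 endothelial lists passed in limma. The medians were -0.32 for surface genes, -0.41 for transcription factors, -0.36 for ligands, -0.18 for Notch genes and 0.23 for activation genes. Of the 5 activation genes 4 lay above 0, and the median over all genes was -0.05. At unadjusted p under 0.05, 6 of 32 surface genes and 6 of 20 transcription factors were lower, where 6.27% of all genes were. After AAV-Galgt2 0 passed as well. The smallest p among surface genes belonged to Vwf, at 1.02 ± 0.28 (adjusted p = 0.399), and among Notch genes to Heyl, at 1.24 ± 0.31 (adjusted p = 0.361), which was 0.18 by the median of its probe sets. The median of the transcription factors was 0.42 and that of the Notch genes 0.46, with 3 of 20 and 3 of 10 higher at unadjusted p under 0.05, where 5.91% of all genes were. The medians of the surface, ligand and activation lists were 0.21, 0.08 and 0.38, against 0.03 over all genes.

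**Figure D4:**
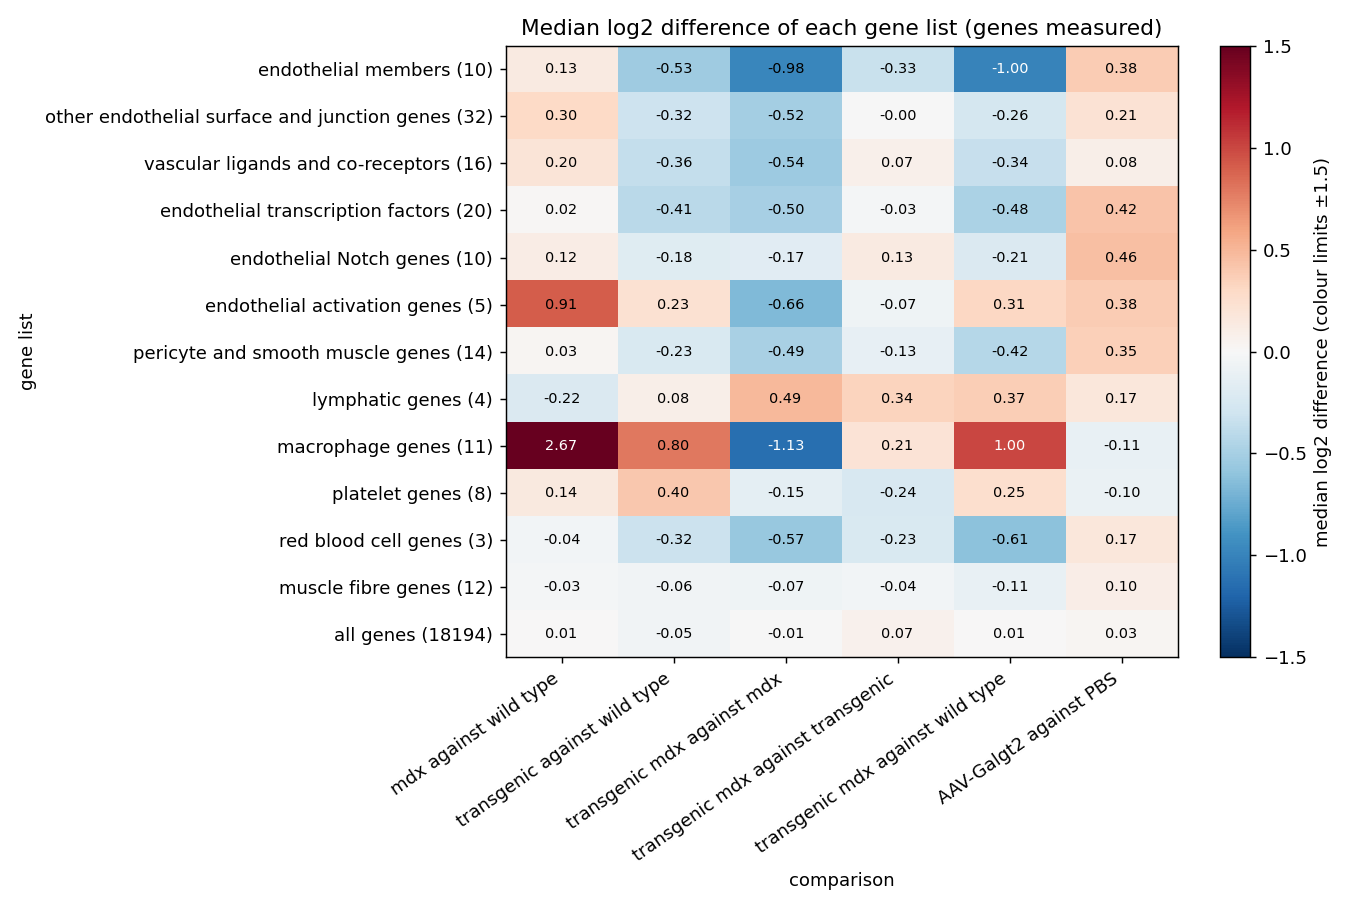
Heat map of the median log2 difference of each gene list (vertical axis) in each comparison but the interaction (horizontal axis), with the median of all genes last, and blue below 0 and red above. In transgenic mdx against mdx the median of the 10 endothelial genes is -0.98 and that of the macrophage genes -1.13.

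Markers of other cell types moved in the same comparisons. Macrophage genes, 11 of 12 measured, had summed intensities of 7413 to 7417 in wild type, 26330 to 31390 in mdx, 10540 to 14290 in transgenic and 13530 to 13830 in transgenic mdx muscle. From mdx to transgenic mdx 2.11% of all genes fell, a share to set beside the counts that follow. Of the 11 macrophage genes 4 fell, with Tyrobp at -1.66 ± 0.27 (limma, adjusted p = 0.00785). Without transgenic mdx replicate 2 Tyrobp differed by -1.59 and missed the threshold. Platelet genes, 8 of 9 measured, of a cell type that also expresses Pecam1 and Esam, summed to 860 to 913 in wild type, 2265 to 2467 in mdx, 920 to 1540 in transgenic and 1034 to 1379 in transgenic mdx muscle. Pf4 alone made up 2047 and 2140 of these sums in mdx, and it was the only 1 of the 8 to pass from mdx to transgenic mdx, with a fall of 1.27 ± 0.29 (adjusted p = 0.0310, and 0.0746 without transgenic mdx replicate 2 or 0.105 without mdx replicate 2). The platelet list had a median of -0.15, with 3 of 8 above 0. Lymphatic genes, 4 of 5 measured, had a median of 0.49, with 3 above 0 and 0 calls. Red blood cell genes, 3 of 7 measured, had a median of -0.57, with all 3 below 0 and 0 calls. Of all genes 51% lay below 0 and 6.08% passed. Pericyte and smooth muscle genes, 14 of 14 measured, summed to 15790 to 18480 in wild type, 12380 to 17260 in mdx, 12300 to 14470 in transgenic and 8492 to 11680 in transgenic mdx muscle, and Acta2 alone among them fell, by 0.98 ± 0.24 (adjusted p = 0.0420). By the median of its probe sets Acta2 differed by -0.38 (adjusted p = 0.455), and without transgenic mdx replicate 2 its adjusted p was 0.213. Muscle fibre genes, 12 of 12 measured, summed to 142900 to 152900 in wild type, 142300 to 145600 in mdx, 133200 to 147100 in transgenic and 133500 to 135200 in transgenic mdx muscle, and their median in transgenic mdx against mdx was -0.07. Of the 12, 7 were lower there without overlap, where 22.3% of all genes were, and 2 fell, where 2.11% of all genes did. They were creatine kinase Ckm, by 0.96 ± 0.21 (adjusted p = 0.0279), and the Z-disc gene Tcap, by 1.06 ± 0.27 (adjusted p = 0.0487). Both calls were lost without transgenic mdx replicate 2, at differences of -0.75 and -0.80. After AAV-Galgt2 and PBS the macrophage sums overlapped, at 9947 to 12100 and 9894 to 14940. The part of these cell types in the endothelial differences was not tested.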

How the data were processed

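The authors deposited intensity values per probe set for 16 arrays, of which the 12 muscle arrays were used. Per the labels' protocols, 25 ng of RNA was amplified for the muscle arrays. Per the submitters' processing notes GCOS and RMA were used (versions not stated), and whether the array sets were processed together is not given in the sources used here. With a range of 3.90 to 24270, they were treated as linear and converted to log2. Arrays have no read depth, and their number limits the precision.

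Of 45101 probe sets, 34958 carry 1 gene symbol and were used. The brightest probe set, by its mean on the muscle arrays, stood for its gene. One limma 3.58.1 fit (lmFit and eBayes, R 4.3.3) took all 12 arrays with 6 group means, each comparison within an array set, two-sided, adjusted by Benjamini-Hochberg over 18194 genes with 0.05 as the threshold. The members and the lists were chosen with earlier results of these data known. All 10 members are named; from each other list and comparison the naming rule allowed the 4 called genes of largest change or, with no call, the 2 genes with the lowest p. The code was tested on simulated data. Alternatives were a block on the replicate number, a fit within one array set, median shift, quantile normalization, a filter on dim genes, an offset of 16, the median of probe sets, a trended variance and each array left out in turn. The C2C12 arrays enter no comparison.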

Additional observations from a re-analysis of the deposited data

Results flagged for a closer look

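Esam and Cdh5 differed between the 2 ways of overexpressing Galgt2 in mdx muscle, in a comparison chosen after the values were seen. The log2 difference of transgenic mdx from mdx, less that of AAV-Galgt2 from PBS, was -1.5614 ± 0.31 for Esam (limma, adjusted p = 0.0380) and -2.0602 ± 0.41 for Cdh5 (adjusted p = 0.0361). Of all genes 2.09% passed this test. Both terms pointed apart, at -1.24 and 0.32 for Esam and -1.02 and 1.04 for Cdh5. The dim Cdh5 probe set had -0.47 and -0.16, which did not point apart. Transgenic mdx replicate 2, which stood apart in RNA quality, enters this comparison, and no value with an array left out is given for it. Tie1 missed narrowly, at -1.93 ± 0.44 (adjusted p = 0.0514), and the median over the 10 genes was -1.65, against -0.03 over all genes. The transgene and vector comparisons lie in array sets of different overall level and differ in the mice and in the way Galgt2 was given, and these cannot be told apart.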

How the results depend on the processing

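The count of endothelial genes called in transgenic mdx against mdx, 3, was 1 in a fit within one array set, and from 1 to 3 with each array left out, 1 without transgenic mdx replicate 2 or either AAV-Galgt2 array. In transgenic mdx against wild type the count of 2 was 0 within one array set, 0 with the replicate number as a block and 7 after median shift, and from 0 to 3 with arrays left out. In transgenic against wild type it was 1 after median shift (Tek at -1.14, adjusted p = 0.0447) and 0 to 1 with arrays left out, and in mdx against wild type 0 to 1. The remaining settings kept these 4 counts within 1.5 times, and the counts of the other comparisons stayed at 0. The main fit shared 1 estimate of spread over both array sets, and every member varied less between replicates in the second set. The replicate SD in the first and second set was 0.23 and 0.018 for Esam, 0.42 and 0.023 for Tie1 and 0.50 and 0.16 for Cldn5. The part of this in the counts was not tested. Same-numbered arrays did not deviate alike in all groups. Correlations of their deviations ran from -0.44, between wild type and mdx, to 0.54, between wild type and transgenic. A shared source of these deviations was not tested. The block is therefore given only as an alternative. It changed no other count of members beyond 1.5 times. It moved all genes called in mdx against wild type from 990 to 582 and in transgenic mdx against mdx from 1107 to 677. Within one array set the counts of all genes were 643 in transgenic mdx against mdx, 365 in transgenic against wild type (573 as reported) and 842 in transgenic mdx against wild type (1324 as reported), and median shift gave 1620 in mdx against wild type. The small counts of transgenic mdx against transgenic, 10, and of the interaction, 8, ran from 0 to 14 and from 0 to 22 over these settings. Median shift moved the median of all genes by -0.28 in mdx against wild type, by -0.29 in transgenic mdx against wild type and by -0.17 in transgenic against wild type, and the lower share of calls from 31.1% to 66.7%, from 32.5% to 62.4% and from 32.6% to 51%. Of 553 member values under settings other than leaving out an array, 524 kept direction and side of the threshold and 11 changed sign, none of them called. In mdx against wild type median shift turned Esam to -0.039, Pecam1 to -0.13 and Cdh5 to -0.17, and quantile normalization turned Pecam1 to -0.033 and Cdh5 to -0.085. In AAV-Galgt2 against PBS median shift turned Tek to -0.090 and Cldn5 to -0.056, and quantile normalization Cldn5 to -0.059. Flt1 in the interaction turned to 0.066 (median shift) and 0.23 (median of probe sets), and Eng in transgenic mdx against transgenic to 0.15 (median of probe sets). Of 660 values of the other named genes with an array left out, 181 lost their call and 0 changed sign.

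With an array left out, 37 of 840 member values changed sign, and the ranges of the genes concerned follow (log2 differences). For mdx against wild type they ran from -0.012 to 0.50 for Esam, -0.40 to 0.70 for Pecam1, -0.27 to 0.50 for Cdh5, -0.72 to 0.21 for Kdr, -0.18 to 0.075 for Emcn and -0.032 to 0.78 for Eng. For transgenic against wild type they ran from -0.84 to 0.18 for Pecam1, -0.51 to 0.23 for Emcn and -0.84 to 0.032 for Eng. For transgenic mdx, Flt1 ran from -1.90 to 0.26 against mdx, from -1.92 to 0.24 against transgenic muscle and from -1.18 to 0.99 in the interaction. Kdr ran from -0.31 to 0.62 and Eng from -0.84 to 0.035 in the interaction. Against transgenic muscle Kdr ran from -0.39 to 0.18, Tek from -0.30 to 0.19, Eng from -0.46 to 0.41 and Cldn5 from -0.28 to 0.87, and Cldn5 against wild type ran from -0.997 to 0.15. After AAV-Galgt2 Emcn ran from -0.2248 to 0.2247 and Cldn5 from -0.020 to 0.27. All genes called ran from 132 to 1338 for mdx against wild type, 311 to 1290 for transgenic mdx against mdx, 434 to 1575 for transgenic mdx against wild type, 184 to 653 for transgenic against wild type, 4 to 22 for transgenic mdx against transgenic, 0 to 142 for the interaction and 0 to 158 for AAV-Galgt2 against PBS. With 2 arrays a group, intervals are wide.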

Other observations

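The C2C12 arrays, 1 each of myoblasts, myotubes and both with stable Galgt2, are a mouse muscle cell line with no endothelium and give a view of the same probe sets without vessels. Intensities over the 4 arrays ran from 19.7 to 27.9 for Esam, 25.8 to 34.1 for Pecam1, 11.2 to 14.5 for Cdh5, 21.7 to 25.8 for Kdr, 12.6 to 16.8 for Tie1, 10.6 to 12.1 for Emcn, 18.3 to 24.5 for Cldn5 and 52.5 to 73.8 for Eng. The Tek probe set ran from 43.2 to 214, highest in the Galgt2 myotubes. The Flt1 probe set ran from 61.1 to 583, highest in the untransfected myotubes. With 1 array per condition these are values with no test.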
